A study of Rattus norvegicus with 26 samples.

Results

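The step from Day 2 to Day 4 of smooth muscle differentiation was examined in the rMAPC clone 3c3, on the 3 Day 4 arrays and the 3 Day 2 arrays of that clone, 6 of the 26 arrays of the series. The arrays were taken by their labels, and no measured value entered the choice. Clone 3c3 is a single *Oct4*-expressing clone of rat multipotent adult progenitor cells, labelled as derived from the bone marrow of a female Fischer rat at embryonic day 18. Cells of all 6 arrays were in basal rMAPC medium with TGF-β and PDGF-bb, and the Day 0 and Day 6 arrays of the clone (3 each) came from the same course. A time-matched culture without the growth factors was not analysed here, so that time in culture and time with the factors cannot be told apart. Line Cl19, also from a female Fischer rat but of 3 weeks of age, was given the same treatment and supplied 3 arrays per day for comparison.

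TGF-β is a secreted factor that acts through receptor kinases and Smad proteins and is a classical inducer of smooth muscle genes, and PDGF-BB is a mitogen and chemoattractant of the mesenchymal cells that form vessel walls. rMAPCs are grown as undifferentiated cells with *Oct4* (*Pou5f1*) and also transcribe genes of the extraembryonic endoderm. Smooth muscle differentiation is recognised by contractile genes such as *Tagln* (SM22α), *Cnn1* (calponin) and *Tpm2* (β-tropomyosin), many of which depend on serum response factor (*Srf*) and its partner myocardin (*Myocd*).

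Levels are log2 intensities after quantile normalization over the 26 arrays, and a change is the level on Day 4 minus the level on Day 2. The replicate number of an array is also its slide, so that each Day 4 array was compared with the Day 2 array beside it. A change was called at an adjusted p under 0.05 by limma with Benjamini-Hochberg adjustment over 24442 probes, fitted on the 12 arrays of 3c3 with the slide as a block. The changes on the slides of replicates 1 and 2 correlated at 0.67, those of replicates 1 and 3 at 0.76 and those of replicates 2 and 3 at 0.80, across 17221 probes well above background on all 6 arrays, which are not independent of each other. On each slide Day 2 lay at position 2 and Day 4 at position 3, so that day and position cannot be told apart.

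Replicates 2 and 3 each carried a limit. Replicate 2 stood apart on both days: the root mean square difference between arrays was 0.488 and 0.485 log2 units from replicate 2 to the others on Day 2, against 0.256 between replicates 1 and 3, and 0.666 and 0.593 on Day 4, against 0.387. The slide of replicate 3 had a higher background, with a net negative-control signal of 28.3 on Day 2 and 44.5 on Day 4, against 11.3 to 13.4 on the other 4 arrays. On it 44.3% of features were well above background on Day 4, against 55.4% and 57.1%.

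Of the 24442 probes, 4276 were called (17.5%), 1879 higher on Day 4 (7.69%) and 2397 lower (9.81%). The median change over all probes was -0.11. Among the called probes, 4275 moved the same way on all 3 slides and 3585 (83.8%) were well above background on all 6 arrays. The calls were made on these same slides, so that the shared direction is no separate support for them. The higher probes moved further: 903 of them and 645 of the lower ones changed by over 2-fold, and 241 and 109 by over 4-fold. All 3 Day 4 arrays lay above all 3 Day 2 arrays for 3213 probes (13.1%) and below them for 4565 (18.7%). Since RNA of whole cultures was measured, a lower level from fewer cells of a type and one from less RNA per cell cannot be told apart. The labels do not say that replicates were separate cultures, so that p-values measure the spread between these samples only.

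The number of calls depended on which slides were used. Without replicate 2 none of the probes was called, with 5725 at an unadjusted p under 0.05 by limma. Without replicate 3, 142 were higher and 66 lower, and 188 of these 208 were among the 4276. Without replicate 1, 1072 were higher and 1134 lower. On the authors' log2 table, which is not normalized between arrays, 2074 probes were higher and 1013 lower, so that 67.2% of calls were higher against 43.9% here.

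Among named genes well above background on all 6 arrays, the largest rise was that of *Gas6*, a vitamin K-dependent ligand of the TAM receptor kinases (rat build rn4, chr16:80930560-80930619). Its log2 level was 6.48, 7.77 and 8.17 on Day 2 in replicates 1 to 3, and 13.06, 13.80 and 13.46 on Day 4. Every Day 4 array was thus far above every Day 2 array, and *Gas6* rose 62.5-fold (log2 change 5.96 ± 0.30, SE, n = 3 per day, adjusted p = 0.00044 by limma). Another probe of *Gas6* rose by 5.80, while for a further probe none of the 6 arrays gave a signal well above background. *Gas6* had been at 3.67 on Day 0 and stood at 12.59 on Day 6.

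*Svs4*, a seminal vesicle secretory protein, was at 7.58, 8.39 and 8.51 on Day 2 and at 13.50, 13.23 and 13.73 on Day 4. It rose 40.2-fold (5.33 ± 0.52, adjusted p = 0.0022 by limma), from a mean of 8.35 on Day 0. *Igfbp3*, which binds insulin-like growth factors in the extracellular space, was at 6.88, 6.67 and 7.10 on Day 2 and at 10.57, 12.23 and 11.20 on Day 4. It had fallen from 10.03 on Day 0, rose by 4.45 ± 0.56 (adjusted p = 0.0041 by limma) and was at 7.75 on Day 6, so that its level went down, up and down again. *Efna3*, a membrane-bound ephrin, peaked likewise: it rose by 4.31 to Day 4 and its mean was 6.57 on Day 0 and 6.56 on Day 6.

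*Cited4*, a CBP/p300-binding transcriptional cofactor, was at 6.04, 7.59 and 8.08 on Day 2 and at 10.53, 11.96 and 11.61 on Day 4. It rose by 4.13 ± 0.50 (adjusted p = 0.0035 by limma) and stood at 8.04 on Day 6. The chemokine receptor gene *Cxcr4* rose by 4.19 and 3.94 on its 2 probes. *Crispld2*, a secreted protein, rose by 3.82 and stayed up on Day 6 at a mean of 8.29. *Cd200*, an immune inhibitory surface protein, also rose by 3.82 but was back at 4.05 on Day 6. *Bmp3*, a BMP family member that opposes BMP signalling in bone, rose by 3.73 ± 0.22 (adjusted p = 0.00088 by limma).

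**Figure D1:**
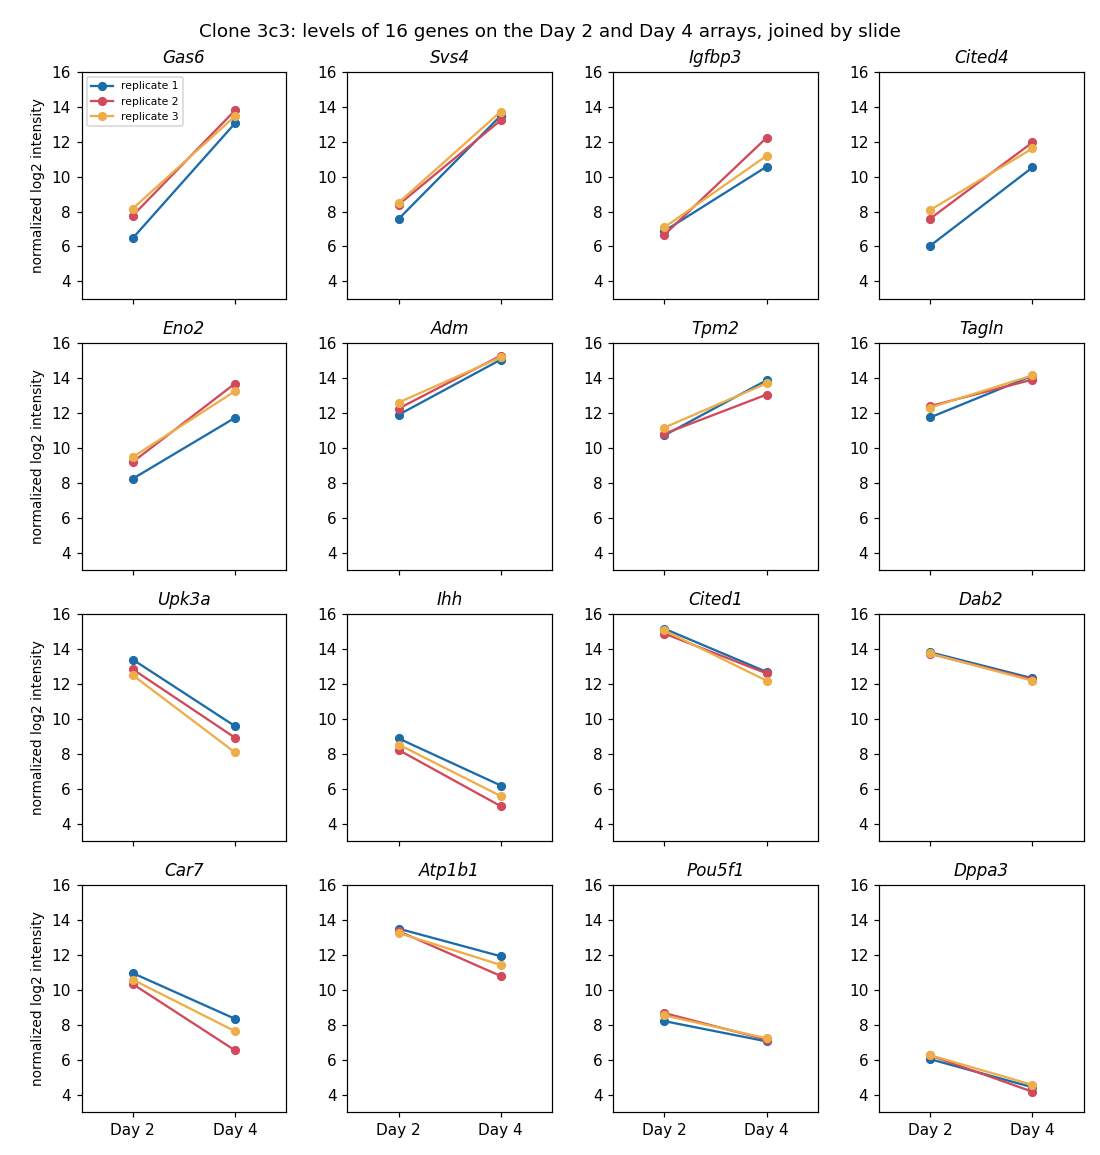
Normalized log2 intensity (vertical axis) of 16 genes on the Day 2 and Day 4 arrays of clone 3c3, with a line joining the arrays of each slide (replicates 1 to 3 by colour). *Gas6* climbed from between 6.48 and 8.17 to above 13 on every slide, and in each of the 16 panels the lines run the same way on all slides without overlap between the days.

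Some genes were well above background on Day 4 but not on Day 2. For 56 probes no Day 2 array and every Day 4 array of 3c3 was well above background, and 41 of these were called. For such genes the fold is a lower limit. It sets the Day 4 mean against a Day 2 mean in which each array counts with its lowest signal that was well above background, or with the probe itself where that was brighter. *Gfi1*, a zinc finger transcriptional repressor, was at 0.89, 2.13 and 1.33 on Day 2 and at 6.00, 9.48 and 8.22 on Day 4, at least 41-fold higher (adjusted p = 0.0038 by limma), and its mean was 3.45 on Day 6. *Kdr*, the VEGF receptor of endothelium and early mesoderm, was at least 17.1-fold higher, at 4.62, 8.19 and 7.11 on Day 4. *Stc2*, a secreted stanniocalcin glycoprotein, was at least 14.4-fold higher (adjusted p = 0.035 by limma), but replicate 1 stood at 3.16 on Day 4 while replicates 2 and 3 stood at 8.73 and 7.25. The vasoconstrictor peptide gene *Edn2* (at least 9.71-fold) and the guanine deaminase gene *Gda* (at least 8.99-fold) appeared on Day 4 as well.

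Glycolysis and hypoxia-response genes and contractile genes were the lists with the largest shares of higher genes among the 42 lists read. These are genes that HIF transcription factors induce when oxygen is low, and they cover glucose uptake, glycolytic enzymes and the sensing of oxygen. Of the 34 genes tested, 22 rose and 2 fell, with a median change of 0.87, whereas 9.35% of all 11976 genes measured by their brightest probe were higher and 11.4% lower, at a median of -0.08. The list's median was 0.91, 0.94 and 0.74 on the 3 slides. Without replicate 1, 16 genes of the list were higher and 2 lower, without replicate 3, 5 were higher, and without replicate 2 none was called. The paper's methods set a lower oxygen level for the differentiation than for its cultures of primary aortic smooth muscle cells. The part of oxygen in these changes was not tested.

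*Eno2*, a glycolytic enolase, was at 8.23, 9.19 and 9.47 on Day 2 and at 11.72, 13.68 and 13.25 on Day 4, and rose by 3.92 ± 0.37 (adjusted p = 0.002 by limma). *Ankrd37*, a hypoxia-responsive ankyrin repeat gene, was at 8.99, 10.10 and 9.82 and then at 11.64, 14.06 and 13.32. It rose by 3.37 ± 0.51 (adjusted p = 0.0065 by limma) from a level on Day 2 near that of Day 0 (10.21), and was at 10.62 on Day 6. *Adm*, the vasodilator peptide adrenomedullin, was at 11.89, 12.25 and 12.60 and then at 15.05, 15.28 and 15.19. It had been at 6.93 on Day 0, and its further rise of 2.93 ± 0.26 (adjusted p = 0.0016 by limma) was 3.16, 3.03 and 2.59 on the 3 slides. *Ndrg1*, a stress-response gene, rose by 2.72.

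The sequence bound by HIF has the core ACGTG or GCGTG, and both were looked for on both strands of the 250 bases before each gene's start (RefSeq, GRCr8). ACGTG was found in 12 of the 30 glycolysis and hypoxia genes that had a promoter in the table (40%), against 22.2% of 9708 tested genes and 16.9% of all 27457 promoters. Of the 20 members that rose, 7 held it (35%), and of the 10 others, 5 (50%). GCGTG was found in 15 of the 30 (50%), against 43.2% of tested genes (a match can share its end base with one to ACGTG). The promoters of *Ankrd37* (chr16:53001257-53001506, plus strand) and *Eno2* (chr4:159267221-159267470, minus strand) are printed as risen members that hold the motif, 5′ to 3′, with ACGTG on either strand in capitals.
Ankrd37: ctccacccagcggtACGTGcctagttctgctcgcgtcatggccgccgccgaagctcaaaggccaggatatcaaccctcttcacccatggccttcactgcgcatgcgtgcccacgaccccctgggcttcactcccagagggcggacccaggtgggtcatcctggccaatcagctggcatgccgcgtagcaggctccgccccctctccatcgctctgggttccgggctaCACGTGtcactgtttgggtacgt
Eno2: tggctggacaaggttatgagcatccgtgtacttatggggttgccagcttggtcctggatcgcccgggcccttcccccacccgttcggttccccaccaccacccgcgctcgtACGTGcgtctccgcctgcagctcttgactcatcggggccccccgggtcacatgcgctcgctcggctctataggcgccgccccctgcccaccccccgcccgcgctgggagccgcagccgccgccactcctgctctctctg
In *Ankrd37* the capitals CACGTG hold the motif on both strands, which overlap. No match lay in the same window of *Adm*. A match is a description of these letters only.

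Contractile genes of smooth muscle rose together in number. Of the 23 tested, 15 rose and 1 fell, with a median change of 0.75, which became 0.50 with another background correction (normexp). Of the 23, 17 were well above background on all 6 arrays, while *Itga8*, *Kcnmb1* and *Mylk* were so on no array of either day. *Tpm2* was at 10.71, 10.81 and 11.16 on Day 2 and at 13.87, 13.05 and 13.70 on Day 4, a rise of 2.65 ± 0.34 (adjusted p = 0.0042 by limma). *Tagln* was at 11.74, 12.39 and 12.30 and then at 14.13, 13.90 and 14.15, a rise of 1.92 ± 0.25 (adjusted p = 0.0042 by limma). Both had risen by Day 2 from 8.54 and 8.83 on Day 0, and their means on Day 6 were 14.48 and 14.78, the highest of the 4 days for each gene.

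The muscle intermediate filament gene *Des* rose by 1.75, enteric γ-actin (*Actg2*) by 1.47, smoothelin (*Smtn*) by 1.31 and *Cnn1* by 1.05. *Cnn2* did not pass the test (0.25, adjusted p = 0.17 by limma). Without replicate 1, 9 members were higher and 1 lower, and without replicate 3 or without replicate 2 none was called. The gene of smooth muscle α-actin was not analysed here. A CArG box, the site of serum response factor, was found in the promoter window of 1 of the 18 members with a promoter, against 1.27% of tested genes. None of the 13 members that rose held it, and the match was in 1 of the 5 others. Only the short window before each start was searched, so that a CArG box outside it was not seen. The paper states that CArG boxes are known in the promoters of *Tagln* and of smooth muscle α-actin. These counts therefore do not show that the members that rose lack such sites.

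The regulators of these genes moved less. Of 16 tested, 2 rose (12.5%, against 9.35% of all genes) and none fell, with a median change of 0.23, which was -0.05 without replicate 3. *Fhl2*, a LIM-domain coactivator, rose by 0.78 ± 0.13 (adjusted p = 0.009 by limma). *Srf* was at 13.61, 13.48 and 13.51 and then at 13.88, 13.87 and 13.72, a difference of 0.29 that was not called (adjusted p = 0.079 by limma), while its other probes were at -0.07 and -0.31. None of the 6 arrays had *Myocd* well above background, so that no change can be given for it. Among the 19 tested subunits of BAF, the chromatin remodelling complex, 1 rose and 2 fell. The one that rose was *Smarcd3* (BAF60c), at 10.46, 9.68 and 10.04 on Day 2 and at 11.64, 11.36 and 11.78 on Day 4, by 1.54 ± 0.18 (adjusted p = 0.0032 by limma).

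Cardiac genes are shown because many are shared by early muscle programmes. Of the 20 tested, 9 rose and 1 fell, with a median change of 1.08 that shrank to 0.18 with the normexp correction, which adds an offset to every value, and to 0.64 without replicate 3. *Nppa*, atrial natriuretic peptide, was at 4.97, 4.76 and 5.49 on Day 2 and at 9.20, 7.62 and 8.93 on Day 4, and rose by 3.51 ± 0.41 (adjusted p = 0.0032 by limma) on its way to a mean of 11.07 on Day 6. Cardiac actin (*Actc1*) rose by 2.82 (adjusted p = 0.042 by limma), while its second probe, well above background on none of the 6 arrays, was not called. *Tnni1*, the slow skeletal troponin I also used by the fetal heart, fell by 2.06.

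Among matrix and adhesion genes the called members mostly rose. In the basement membrane and integrin list 14 of 32 genes rose and none fell (median 0.53). On its brightest probe *Lama4*, a laminin chain of vessels, was well above background on no Day 2 array and at least 5.88-fold higher on Day 4. Its other probes were at 1.58 and 0.98 and were not called. The integrins *Itga7*, a laminin receptor of muscle, and *Itgb4*, of hemidesmosomes, rose by 1.91 and 1.67. Among fibrillar collagens and their processing enzymes 11 of 35 rose and none fell (median 0.30, and 0.08 with the normexp correction).

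In that list *Col16a1* rose by 3.85 ± 0.33 (adjusted p = 0.0015 by limma) from a level that was well above background on 2 of 3 Day 2 arrays. *Loxl2*, which oxidises lysines to crosslink collagen, was at 8.88, 10.29 and 10.29 and then at 11.79, 13.15 and 12.23, and rose by 2.57. *Plod2*, a collagen lysyl hydroxylase, rose by 2.16 and *Fbn1*, fibrillin of microfibrils, by 1.84. On Day 6 *Loxl2* and *Plod2* had means of 11.02 and 7.0, below each of their Day 4 values, while *Col16a1* and *Fbn1* had means of 6.99 and 6.55, above each of theirs. Of 27 matricellular and protease genes 6 rose and 1 fell.

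Genes of the mesenchymal state rose in 6 of 24 cases and fell in none. Fibronectin (*Fn1*) was at 8.45, 8.59 and 9.14 and then at 10.28, 11.46 and 11.26, a rise of 2.27 ± 0.24 (adjusted p = 0.0027 by limma) that came after no call between Day 0 and Day 2. The repressor *Snai1* rose by 1.79 (adjusted p = 0.034 by limma) and *Zeb1* by 1.08 (adjusted p = 0.018 by limma). *Cd44*, the hyaluronan receptor, was at least 3.53-fold higher, since no Day 2 array was well above background. Its mean had been 4.80 on Day 0, against 4.36 on Day 4 and 5.80 on Day 6.

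Epithelial genes did not go one way. In the list of keratins and desmosomal genes 7 of 35 rose and 4 fell, with a median of 0.04. All 3 named keratins of simple epithelium rose, *Krt7* from 6.48, 5.85 and 6.71 to 10.14, 8.16 and 9.85 (3.04 ± 0.34, adjusted p = 0.0028 by limma), *Krt20* by 2.29 and *Krt19* by 1.74. Among 30 tight junction genes 4 rose and 5 fell (13.3% and 16.7%, against 9.35% and 11.4% of all genes). The claudins were split, as *Cldn2*, the pore-forming claudin of leaky epithelia, fell by 4.69 to a level that was well above background on 1 of 3 Day 4 arrays, *Cldn6* fell by 1.10, and *Cldn3* rose by 0.95.

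**Figure D2:**
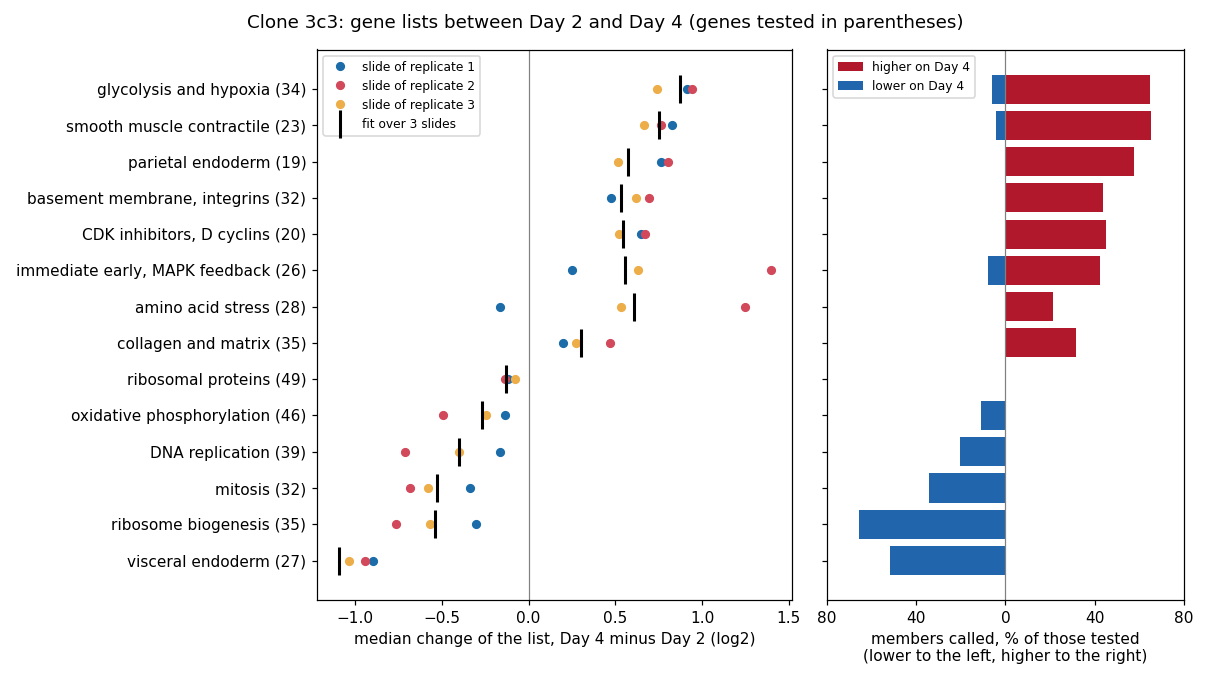
Left, the median change of 14 gene lists between Day 2 and Day 4 in log2 units, with a point for each slide and a black bar for the fit over the 3 slides. Right, the percentage of tested members called higher (red) and lower (blue), with glycolysis and hypoxia at 22 of 34 higher and ribosome biogenesis at 23 of 35 lower.

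The largest fall among named genes well above background on all 6 arrays was that of *Upk3a*, a uroplakin of urothelium (chr7:123037758-123037817, rn4). Its log2 level was 13.40, 12.85 and 12.51 on Day 2 and 9.59, 8.93 and 8.08 on Day 4, a fall of 16.6-fold (-4.05 ± 0.35, adjusted p = 0.0015 by limma). It had risen from 9.34 on Day 0 and stood at 9.94 on Day 6. *Car7*, a cytosolic carbonic anhydrase, was at 10.98, 10.35 and 10.60 and then at 8.36, 6.55 and 7.65 (-3.12 ± 0.31, adjusted p = 0.0023 by limma), and had not been called between Day 0 and Day 2. *Ihh*, the hedgehog ligand that visceral endoderm secretes, fell by 2.43 to 2.96 on 4 probes.

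*Cited1*, a transcriptional cofactor related to *Cited4*, was at 15.17, 14.89 and 15.07 on Day 2 and at 12.70, 12.61 and 12.19 on Day 4. It fell by 2.54 ± 0.20 (adjusted p = 0.0011 by limma), back near its Day 0 mean of 11.83, whereas *Cited4* had risen over the same days. Of the 10 largest falls among genes well above background on all 6 arrays, 9 were of genes that had risen by Day 2, and *Car7* was the other. They included *Hoga1*, a mitochondrial aldolase of hydroxyproline breakdown (-2.82), *Cdhr2*, a protocadherin of the brush border (-2.79), the membrane protein genes *Pllp* (-2.41) and *Cltrn* (-2.37), *Slc27a5*, a bile acid and fatty acid CoA ligase (-2.38), and the kinase gene *Wnk2* (-2.35).

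Going the other way across the background, 44 probes were well above it on all Day 2 arrays and on no Day 4 array, and 28 of these were called. *Thrb*, a thyroid hormone receptor, was at 6.01, 4.87 and 5.56 on Day 2 and was at least 6.76-fold lower on Day 4. The sulfate transporter gene *Slc26a1* was at least 5.20-fold lower, the protein kinase C gene *Prkcb* at least 3.50-fold and *Rassf2*, a Ras association domain protein, at least 3.45-fold. *Thrb* and *Prkcb* had means of 0.75 and 0.64 on Day 0 and of 0.94 and 0.65 on Day 6, so that they were seen on Day 2 alone among the 4 days.

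Visceral endoderm genes fell, after most had been higher on Day 2 than on Day 0. The visceral endoderm is the extraembryonic epithelium that takes up and secretes nutrients around the early embryo, through apolipoproteins and endocytic receptors. Of the 27 genes tested, 14 fell and none rose, with a median change of -1.09, and -0.40 with the normexp correction. The list's median from Day 0 to Day 2 was 2.51, and both values use the same Day 2 arrays. *Hnf4a*, its nuclear receptor, was at 6.50, 5.63 and 5.92 and then at 4.52, 3.45 and 4.18, and fell by 1.97 ± 0.24 (adjusted p = 0.0037 by limma).

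The apolipoprotein genes *Apoc3* and *Apom* fell by 2.09 and 2.06, although the second probe of *Apom* was not called (-1.67, adjusted p = 0.11 by limma). *Dab2*, the endocytic adaptor of this epithelium, was at 13.82, 13.74 and 13.75 on Day 2 and at 12.34, 12.26 and 12.19 on Day 4, with little spread between replicates (-1.51 ± 0.18, adjusted p = 0.0032 by limma). Summed over the list, the linear normalized intensity was 261000 to 279000 on the Day 2 arrays and 192000 to 202000 on the Day 4 arrays. Without replicate 1, 9 genes were lower, without replicate 3, 5, and without replicate 2 none.

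Parietal endoderm genes, of the neighbouring migratory lineage that lays down basement membrane, went the opposite way. Of 19 tested, 11 rose and none fell (median 0.57), and the summed intensity was 342000 to 373000 on Day 2 and 438000 to 485000 on Day 4. Among them *Tfpi*, an inhibitor of coagulation, rose by 2.22 ± 0.15 (adjusted p = 0.00095 by limma), on slides whose levels differed: 5.74, 7.91 and 6.48 on Day 2 and 8.0, 10.29 and 8.49 on Day 4. *Thbd*, thrombomodulin, rose by 1.68 and *Plat*, tissue plasminogen activator, by 1.26. Of the 16 genes tested in a list of primitive endoderm regulators and markers, 1 rose and 3 fell, and *Cited1*, *Hnf4a* and *Dab2* were the ones that fell.

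Pluripotency genes were called at shares near those of all genes. Of 13 tested, 1 rose (7.69%) and 2 fell (15.4%), against 9.35% and 11.4% of all genes. Their median was -0.67 (-0.10 with the normexp correction). *Pou5f1*, which had been at 11.53 on Day 0, was at 8.23, 8.69 and 8.56 on Day 2 and at 7.07, 7.17 and 7.24 on Day 4, a fall of 1.33 ± 0.20 (adjusted p = 0.0067 by limma), and its Day 6 mean was 7.42. *Dppa3*, a germline and early embryo gene, fell by 1.80. *Klf5* rose by 0.65. The de novo DNA methyltransferase *Dnmt3a*, which is on no list, was at 7.58, 7.33 and 7.50 and then at 6.15, 4.74 and 4.78 (-2.25 ± 0.37, adjusted p = 0.009 by limma).

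Growth genes fell in small steps. Ribosome biogenesis and MYC-linked genes fell in 23 of 35 cases and rose in none (median -0.54, with slide medians of -0.31, -0.77 and -0.57). *Mycn* was at 12.42, 11.88 and 12.23 and then at 11.29, 9.99 and 10.65, a fall of 1.53 ± 0.24 (adjusted p = 0.007 by limma), and *Polr1a*, the large subunit of RNA polymerase I, fell by 0.90. None of 49 ribosomal protein genes was called in either direction, though 8 were lower with the normexp correction. Mitosis genes fell in 11 of 32 cases (median -0.53) and DNA replication genes in 8 of 39 (median -0.40), with none higher in either list.

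Of these, *Cenpa*, the centromeric histone, fell by 0.97, *Cdc20*, an activator of the anaphase-promoting complex, by 0.76, and cyclin E1 (*Ccne1*) by 1.13. In a list of CDK inhibitors, D cyclins and related genes, 9 of 20 rose and none fell (median 0.55, and 0.29 with the normexp correction). *Cdkn2b* (p15), a known TGF-β target, was at 6.00, 4.78 and 5.32 and then at 7.92, 6.50 and 7.63, a rise of 1.98 ± 0.20 (adjusted p = 0.0025 by limma). *Cdkn1c* (p57) rose by 1.58 to 1.63 on 4 probes, and *Gadd45a* rose by 1.33. Respiratory chain genes fell in 5 of 46 cases (10.9%, against 11.4% of all genes) and rose in none, and *Atp5pb* fell the most, by 0.64.

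Signalling genes were read by their roles. Of 27 TGF-β targets and feedback genes 5 rose and 2 fell (median 0.17). Among ligands, *Inhba*, the activin subunit, rose by 1.92 and *Tgfb3* by 1.80 ± 0.17 (adjusted p = 0.0021 by limma), from 5.21, 4.61 and 5.11 to 6.89, 6.36 and 7.10. *Pmepa1*, a negative feedback gene of the pathway, fell by 1.02 (adjusted p = 0.049 by limma), with levels of 9.66, 8.36 and 9.09 and then of 8.80, 6.81 and 8.42 that overlap between the days. In the BMP list of 22 genes, 3 rose and 2 fell (13.6% and 9.09%, against 9.35% and 11.4% of all genes). The ligands *Bmp2* and *Bmp4* rose by 1.65 and 1.00 and the inhibitor of DNA binding *Id4* by 1.73. The second probe of *Bmp2* was not called (0.77, adjusted p = 0.59 by limma).

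In the Nodal and activin list of 13 genes, 4 rose and 1 fell. The ligand *Nodal* was the one that fell, from 9.90, 9.14 and 9.55 to 9.07, 7.22 and 8.53 (-1.26 ± 0.23, adjusted p = 0.013 by limma), while follistatin (*Fst*), which binds activin, rose by 1.26 and the Smad partner *Foxh1* by 1.64. Wnt genes gave 2 higher and 5 lower of 30 (6.67% and 16.7%, against 9.35% and 11.4% of all genes). *Wnt4* rose by 1.47, *Wnt7b* fell by 2.40 to a level well above background on 2 of 3 Day 4 arrays, and the secreted Wnt antagonist *Dkk1* fell by 1.23. Of 16 Notch genes 3 rose and 2 fell, led by the ligand *Dll1*, which rose by 2.70 ± 0.36 (adjusted p = 0.0048 by limma). Of the 6 genes of the PDGF axis tested, 2 rose and none fell.

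The MAPK feedback and immediate early genes rose in 11 of 26 cases and fell in 2 (median 0.56), more on the slide of replicate 2 (1.40) than on those of replicates 1 (0.25) and 3 (0.63). *Dusp6*, the ERK phosphatase, was at 6.15, 6.91 and 6.48 and then at 8.07, 10.09 and 8.97 (2.53 ± 0.30, adjusted p = 0.0034 by limma). *Dusp1* and *Ier3* rose by 1.76 and 1.62, and *Dusp2* fell by 1.76. The amino acid stress genes, targets of ATF4, rose in 6 of 28 cases, but their median was -0.16 on the slide of replicate 1, 1.25 on that of replicate 2 and 0.53 on that of replicate 3. *Ddit3* (CHOP) shows this spread, at 8.67, 8.49 and 8.67 on Day 2 and at 9.05, 13.16 and 11.92 on Day 4 (2.77 ± 0.78, adjusted p = 0.047 by limma). Genes of endoplasmic reticulum chaperones differed between slides in the same manner, with slide medians of 0.23, 1.30 and 0.37. Of these 21 genes 2 were higher (9.52%, against 9.35% of all genes).

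Coagulation and complement genes rose in 9 of 29 cases and fell in 4. Genes of the oxidative response and metallothioneins fell in 6 of 24 cases and rose in none, and *Mt1* and *Mt2A*, which bind zinc and copper, fell by 1.35 and 1.39. The metallothioneins are close paralogs, and a probe of one may also detect the other. Cholesterol and fatty acid genes gave 2 higher and 3 lower of 34 (5.88% and 8.82%, against 9.35% and 11.4% of all genes).

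Each called probe was placed by what it had done between Day 0 and Day 2, when 6962 probes were called (28.5%). A change was named new where the earlier one was not called, continued where both had the same sign, and turned back where the signs were opposite. Both changes use the same Day 2 arrays, so that an error on those arrays enters them with opposite signs. New rises made up 974 probes (3.98%) and new falls 1393 (5.7%). Continued rises made up 593 (2.43%) and continued falls 553 (2.26%). Turned-back rises made up 312 (1.28%) and turned-back falls 451 (1.85%).

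New changes made up 51.8% of the rises and 58.1% of the falls. That share rests on the definition: 1864 of the 4276 probes were new where the earlier change also had to have an unadjusted p of 0.05 or more, so that new changes were then fewer than the others. Their median before Day 2 was 0.06 for the rises and -0.10 for the falls, and 0.96 and -0.68 after it. *Svs4*, *Efna3* and *Alx1*, a homeobox gene of craniofacial mesenchyme (3.55), were among the largest new rises, and *Car7*, *Dnmt3a*, the lysosomal *Plbd1* (-2.23) and *Atp1b1*, the sodium pump β-subunit (-1.99), among the new falls. Continued rises had a median of 1.30 by Day 2 and of 1.02 after it, led by *Gas6*, *Cited4* and *Eno2*. Continued falls included *Pdzk1ip1*, a small membrane protein (-1.94), *Sncb*, β-synuclein (-1.87), *Dppa3* and *Pou5f1*.

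Turned-back falls had a median of 1.13 by Day 2 and of -0.95 after it, with *Upk3a*, *Ihh* and *Hoga1* in front. Turned-back rises had -0.99 and 0.90, among them *Igfbp3*, *Cd200* and *Plxnc1*, a semaphorin receptor (2.86). The rises of *Zeb1*, *Itga7*, *Thbd*, *Actg2*, *Cdkn1c*, *Id4*, *Cd44*, *Vwf*, *Tubb3* and *Klf5* were also of this class, after a fall by Day 2. From Day 4 to Day 6, on the same Day 4 arrays, the continued rises went on in the same direction for 65.3% of probes with a median of 0.28. The turned-back rises did so for 31.4%, with a median of -0.30, and the turned-back falls for 37.5%, with a median of 0.18.

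**Figure D3:**
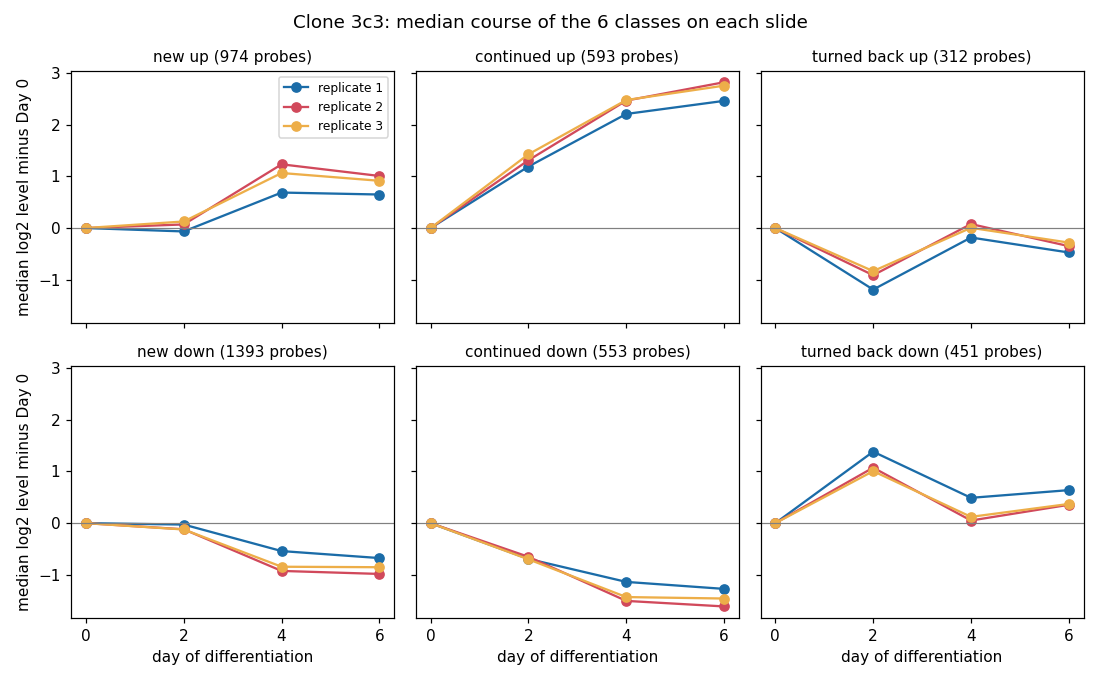
Median log2 level relative to Day 0 (vertical axis) against day of differentiation for the 6 classes of called probes, with a line for each slide of clone 3c3. The classes were defined by the changes up to Day 4, so that only the stretch from Day 4 to Day 6 was not used in choosing them; there the continued rises (593 probes) still climbed by a median of 0.28.

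Of the genes studied as regulators in this differentiation, *Lhx1*, *Eomes*, *Sox4* and *Foxc2* did not pass the test over these days. *Lhx1*, a LIM homeobox gene, was at 8.67, 7.53 and 8.06 on Day 2 and at 8.05, 6.27 and 7.69 on Day 4 (-0.75, adjusted p = 0.19 by limma), after a Day 0 mean of 1.83. *Eomes*, the T-box gene of mesendoderm, differed by -0.93 (adjusted p = 0.15 by limma), *Sox4* by 0.50 (adjusted p = 0.2) and *Foxc2* by 0.10 (adjusted p = 0.76). Between Day 0 and Day 2 *Lhx1*, *Eomes* and *Sox4* had risen by 6.25, 2.92 and 2.41 (adjusted p of 3.1e-05, 0.0018 and 0.00041 by limma). The paper reports these genes as upregulated over the differentiation. The levels of *Lhx1* and *Eomes* overlapped between the days, and the standard errors of their differences were 0.37 and 0.42. Of 17 mesendoderm and mesoderm genes 5 rose and none fell.

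Markers of other cell types were read for the whole lists. Of 11 endothelial genes 3 rose, *Kdr*, *Flt1*, a VEGF receptor (1.72), and *Vwf*, von Willebrand factor (1.50), and the summed intensity of the list went from 2210–2500 to 3970–4080. The median change of that list was -0.06, so that the larger sum was not a rise of most members. Of 7 macrophage genes 2 rose, among them lysozyme *Lyz2* (at least 3.82-fold), with a sum of 313–431 and then of 483–680, while *Ptprc* (CD45) was well above background on no array. None of 8 fibroblast genes was called by limma, *Dcn*, *Fap*, *Lum* and *Thy1* were well above background on no array, and the sum was 2820–3260 and then 2080–2930. Of 7 neural genes 2 rose, among them *Tubb3* (2.13), with a sum of 4050–5950 and then of 5960–8540, and *Gfap*, *Ncam1* and *Pax6* well above background on no array. The part of such cells in the results was not tested.

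Line Cl19 gave a second course on other slides, scanned on another day, so that line and scan day cannot be told apart. On the Cl19 slides too Day 2 lay at position 2 and Day 4 at position 3. A direction shared by the lines therefore cannot tell day from position. The array labelled Cl19 Day 2 replicate 1 lay 0.224 and 0.225 log2 units (root mean square) from the 3c3 Day 2 arrays of replicates 1 and 3, closer than those lay to each other, and 0.761 and 0.710 from the other Cl19 Day 2 arrays. Changes in Cl19 are therefore given with all slides and then without its slide. Between Day 2 and Day 4, 2435 probes were higher (9.96%) and 3433 lower (14%) in Cl19 by limma, and 1059 and 937 without that slide.

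Of the 1879 probes that rose in 3c3, 75.7% were higher in Cl19 as well, against 43% of all probes, and 35.7% were called higher there. Of the 2397 that fell, 86.9% were lower in Cl19, against 57% of all probes, and 41.9% were called lower. Without the slide of the doubtful array the shares with the same sign were 75.1% and 86.3%, and the shares called were 16.6% and 11.2%. Of the 6 classes the turned-back rises had the lowest share with the same sign in Cl19, at 59%, and 61.9% without that slide.

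The step itself differed between the lines for 1602 probes (6.55%), with 3c3 above Cl19 in 930 and below it in 672. Without the slide of the doubtful array 1373 differed, and 1065 were the same probes. Of the 4276 probes called in 3c3, 645 differed (15.1%). *Gas6* rose in Cl19 by 1.61 (1.34 without that slide), which with all slides was 4.36 less than in 3c3 (adjusted p of the difference 0.00053 by limma). *Svs4* (-1.21), *Cited4* (-0.28) and *Bmp3* (-0.37) were not called in Cl19 and each differed from 3c3. Without that slide their changes in Cl19 were -0.66, -0.77 and -1.01, still not called, and each still differed from 3c3. For the smooth muscle genes *Tpm2* (2.98 in Cl19, 2.47 without that slide) and *Tagln* (2.34 and 1.83) no difference between the lines was called (adjusted p of 0.83 and 0.69 by limma), and none of the 23 contractile genes differed. Nor did any of the 34 glycolysis and hypoxia genes, whose median in Cl19 was 0.65 and, without that slide, 0.72. Both counts were also 0 without that slide.

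In the endoderm lists some genes differed. The median of the visceral endoderm list was 0.29 in Cl19 and -0.07 without the doubtful slide, against -1.09 in 3c3, and 7 of its 27 genes differed between the lines, but 3 without that slide. The parietal endoderm list was at -0.63 in Cl19 (-0.59 without that slide) against 0.57, and 10 of 19 genes differed (11 without it), among them *Thbd*, which fell by 1.98 in Cl19 and by 1.60 without that slide. In the interferon and MHC list 13 of 27 genes differed (14 without that slide), at a median of -0.74 in Cl19 (-0.69 without it) and 0.13 in 3c3.

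**Figure D4:**
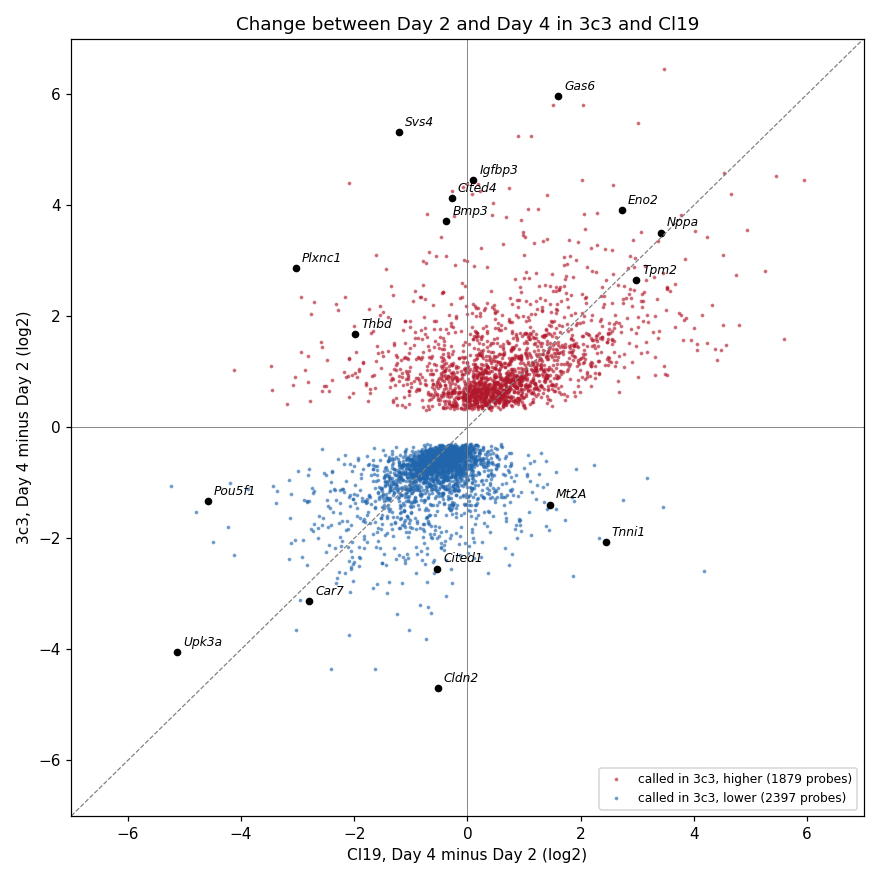
Change between Day 2 and Day 4 in clone 3c3 (vertical axis) against that in line Cl19 with all its slides (horizontal axis), in log2 units, for the probes called in 3c3 that have a value in both lines, with higher probes in red, lower ones in blue, named genes in black and the dashed line marking equal changes. *Tpm2* and *Nppa* lie near the line, and *Svs4*, *Cited4* and *Bmp3* lie high in 3c3 with changes below 0 in Cl19.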

How the data were processed

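RNA of 26 samples was measured, each on 1 Cy3-labelled Agilent rat array. The files the authors deposited hold 1 intensity per feature from Agilent Feature Extraction 10.1.1.1 (named in the submitters' processing notes), already corrected for background, and a table of log2 values that equals the log2 of that intensity to within 5.2e-14 and is not normalized between arrays.

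Here log2 was taken of the 43379 features that measure genes, quantile normalization was run over all 26 arrays, outliers marked by the scanner software were dropped, and 263 of the 41012 probes, which lay on several features, were averaged over them. Quantile normalization removes any shift shared by most genes. A probe was tested if some group of line and day, of 9 groups, had it well above background on all its arrays, which left 24442 probes. limma 3.58.1 in R 4.3.3 was fitted on the 12 arrays of 3c3 with the replicate number as a block. The scanner files show that a replicate number is a slide, and deviations from the group means correlated between same-numbered Day 2 and Day 4 arrays at 0.43, 0.66 and 0.56, across probes. Between arrays of other numbers the correlation ran from -0.59 to 0.35, the latter for Day 2 of replicate 1 with Day 4 of replicate 3. The step in Cl19 came from the same kind of fit on the 12 arrays of Cl19. Its difference from 3c3 came from a fit over 24 arrays with slides as blocks. The number of arrays limits the precision.

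Genes were named in 21860 of 41012 probes, by accession (16725), gene name (3532), synonym (1058) or gene number (545), from a RefSeq gene table of GRCr8 used for names only. Probe coordinates are those of the array annotation (rn4). Lists of genes, 42 in all, were read by the brightest probe of each gene, as counts and medians without a test. The counts of a list stand against all genes, of which 9.35% were higher and 11.4% lower. Named were the 10 largest rises and falls well above background on all 6 arrays and of one sign on all slides, the 4 largest of each class, the 5 largest in either direction across the background, up to 4 called members of each list, and genes the study names. Some of these are left out of the text. The members and lists were chosen with earlier results of these data known. The fit was tested on simulated data. Alternatives were the fit without the block, other scalings, background corrections and filters, array weights, the methods' t-test, and leaving out each replicate. Figures were drawn with matplotlib 3.10.9 in Python 3.11.15.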

Additional observations from a re-analysis of the deposited data

Results flagged for a closer look

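The change between Day 2 and Day 4 differed between 3c3 and Cl19 for 28 of the 119 genes printed, by limma's test of the difference itself with adjustment over all 24442 probes. Over all probes the share was 6.55%. Genes were printed mainly for a large change in 3c3, which enters the difference. That choice favours a high share, so the count is no measure of how often the lines differ. Values are the 3c3 change minus the Cl19 change in log2 units. Without the slide of the array labelled Cl19 Day 2 replicate 1, 24 of the 28 still passed.

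The change was higher in 3c3 for *Svs4* (6.54), *Cited4* (4.40), *Gas6* (4.36), *Igfbp3* (4.35) and *Bmp3* (4.10). It was also higher for *Thbd* (3.65), *Itga7* (3.02), *Id4* (2.65) and *Fst* (1.91). For *Snai1* (2.53), *Flt1* (1.58) and *Zeb1* (1.25) the difference was no longer called without that slide, with an adjusted p of 0.07, 0.11 and 0.16 by limma.

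The change was lower in 3c3 for *Tnni1* (-4.50), *Cldn2* (-4.17), *Pdzk1ip1* (-3.06), *Mt2A* (-2.85), *Mt1* (-2.71) and *Cldn3* (-2.37). It was also lower for *Cited1* (-2.01), *Nodal* (-1.77), *Apoc3* (-1.63), *Wnt4* (-1.51) and *Cldn6* (-1.18). For *Pmepa1* (-1.63) the difference was lost without that slide (adjusted p = 0.11 by limma). *Wnt4* and *Cldn3* were higher on Day 4 in both lines, and their changes in Cl19 were 2.98 and 3.32.

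For 4 more genes the fitted difference was called, but in 1 group that enters it no array had the gene well above background, so that its size is not exact. These were *Gda* (6.49) and *Kdr* (4.19), dim on Day 2 in 3c3, *Plxnc1* (5.89), dim on Day 4 in Cl19, and *Slc26a1* (-2.12), dim on Day 4 in 3c3.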

How the results depend on the processing

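Each of the 4276 called probes kept its direction with the 75th percentile scaling, quantile normalization over the 3c3 arrays, the authors' table and array weights, as did 4273 with the normexp correction and 4252 with dim values raised to the lowest signal well above background. These settings use the same arrays as the calls, so that a kept direction is no separate support. Without the replicate block, so that the pairing by slide was ignored, 988 probes were higher and 594 lower, 910 were new, 380 continued and 292 turned back, 1984 were lower in Cl19, 867 differed between the lines, and 109 genes of the lists were higher and 36 lower. Over all 26 arrays without the block the counts were 1058 higher and 1072 lower, with 1382 new, 446 continued and 302 turned back. The 6 arrays alone with the block gave 0 and 0 by limma, with 6866 at an unadjusted p under 0.05. The methods' t-test gave 3 higher and 1 lower after Benjamini-Hochberg, with 5025 at an unadjusted p under 0.05. The authors' table gave 1013 lower and 1550 new, and 61 list genes lower. With no filter on dim probes 1543 were lower and 749 continued. Normexp gave 2192 higher and 3263 lower.

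Leaving out 1 replicate gave from 0 (replicate 2) to 1072 higher, 0 to 1134 lower, 0 to 1454 new, 0 to 505 continued and 0 to 247 turned back probes, and 0 to 107 list genes higher and 0 to 57 lower. In Cl19 it gave 130 to 1059 higher and 126 to 937 lower. The difference between the lines gave 650 probes without 3c3 replicate 3, 1373 without Cl19 replicate 1 and 722 without 3c3 replicate 2, the latter chosen after seeing the data, as were the list counts without replicates 1 and 2, with quantile normalization over the 3c3 arrays and on the authors' table. Turning sign without replicate 3, the median of the smooth muscle regulators ranged from -0.049 to 0.234 and *Foxc2* from -0.068 to 0.196 over the left-out replicates, as did the values of *Myocd*, from -0.193 to 0.479, which were well above background on none of the 6 arrays and give no change. Without replicate 2 none of the 112 called genes named in the text passed, and without replicate 3, 77 did not. The cause was not tested. Dim probes, such as those of *Gfi1* or *Thrb*, have only bounds on the background side.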

Other observations

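Of 27 interferon and MHC genes 2 rose and 2 fell (7.41% each, against 9.35% and 11.4% of all genes). Of 16 genes of motile cilia 1 rose and 2 fell (6.25% and 12.5%), with a median of 0.00. Against 9.35% of all genes higher and 11.4% lower, 2 of 4 skeletal muscle genes rose and 1 fell, with a summed intensity of 5960–6830 on Day 2 and 7530–8900 on Day 4. Of 9 trophoblast and AP-2 genes 3 rose and 1 fell (median 1.24, and 0.21 with the normexp correction), and their sum went from 451–652 to 1060–1730.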
